A study of Mus musculus with 18 samples.

Results

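Chromatin regulators were hosts of circular RNAs in mouse brain, and 52 of them were followed here in mice with mutated genes of the RNA editing enzymes ADAR1 and ADAR2. The members were a list of 52 genes, and a circle belonged to a member when the gene field of the deposited table named that gene. All 52 had circles on both sequencing platforms, out of 17401 host genes on Illumina and 14825 on Oxford Nanopore (ONT). They held 3707 of 208914 circles on Illumina and 1491 of 166212 on ONT. Of their Illumina circles 3330 were of the exon class, 336 of the intron class and 41 of the antisense class, and 120 named more than 1 gene. The exon class made up 89.8% of member circles and 73.9% of all circles. The total also holds circles outside these classes, while a member circle must name a gene, so the shares are not of like sets.

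The samples were whole brains of male C57BL/6J mice aged 3 to 4 months, in 3 genotypes. Adar1-2KO mice carried Adar1E861A/E861A, an ADAR1 without editing activity, together with Ifih-/-, Adar2-/- and Gria2R/R. Adar2KO mice carried Adar2-/- and Gria2R/R, where the Gria2 allele encodes the edited form of an AMPA receptor subunit. The wild type (WT) mice carried none of these alleles, so each comparison of a mutant with WT also contains the Gria2 allele, and the comparison of Adar1-2KO with Adar2KO also contains the Ifih1 deletion. RNA was digested with RNase R, copied by random-hexamer priming that can run around a circle, and sequenced on both platforms. Each genotype had 3 biological replicates on Illumina and 3 on ONT, except WT with 2 on ONT, where WT replicate 1 was not analysed here. Whole brain is a mixture of cells, so fewer cells of a type and less circular RNA per cell cannot be told apart.

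A circular RNA forms when the end of an exon is spliced back to the start of the same or an earlier exon, and the back-splice junction is the only sequence that separates it from the linear transcript. Circle formation is helped by inverted repeats that pair across the flanking introns. ADAR enzymes edit and can unwind such double-stranded RNA. Chromatin regulators add, remove or read marks on histones and DNA, or slide nucleosomes, and many of them are encoded by long genes with many exons. Mutations in several of them, such as CHD8, ARID1B and ASXL3 in humans, cause neurodevelopmental disorders.

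Junctions that define the most read circle of 8 hosts are shown first, because each of these runs of bases marks a circle and is absent from the linear mRNA. Lower case gives the last 20 bases of the circle's last exon and capitals the first 20 bases of its first exon, read 5′ to 3′ on the sense strand. The bases are from GENCODE M21 transcripts (GRCm38), in which exons were matched to the deposited GRCm39 positions by their spacing. All 8 lie wholly in coding sequence.
Kmt2a exons 19 to 20: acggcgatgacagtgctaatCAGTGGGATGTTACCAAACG
Ash1l exons 3 to 4: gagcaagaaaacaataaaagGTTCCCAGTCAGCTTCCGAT
Ep300 exons 18 to 19: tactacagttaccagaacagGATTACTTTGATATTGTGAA
Crebbp exons 4 to 5: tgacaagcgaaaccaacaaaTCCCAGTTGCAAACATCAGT
Suz12 exons 2 to 3: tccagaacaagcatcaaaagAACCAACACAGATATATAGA
Arid1a exons 2 to 4: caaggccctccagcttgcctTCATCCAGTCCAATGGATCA
Tet3 exon 4: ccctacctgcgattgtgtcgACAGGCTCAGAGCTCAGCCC
Phf20 exons 5 to 9: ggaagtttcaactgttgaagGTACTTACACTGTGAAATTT
Circles of Ncoa2, L3mbtl3 and Nsd3 are shown for the 3 that passed a test between genotypes (Ncoa2 exons 2 to 4, L3mbtl3 exons 2 to 17 and Nsd3 exon 2) and for a neighbour of the first and of the second, which did not pass. Those that passed begin in untranslated bases, so only the coding donor ends are given. Capitals mark the last 20 bases before the back-splice.
Ncoa2 exons 2 to 4 and exons 3 to 4: CCGCCAGATCAAAGAGCAAG
L3mbtl3 exons 2 to 17: AGATACCTGGGCACTCAGAG
L3mbtl3 exons 2 to 12: GATGAGAGCTATGACTATTG
Nsd3 exon 2: TAGAGCCGGAGGGACAGAAT
Both Ncoa2 circles share 1 donor end and differ in the exon to which it is joined. The L3mbtl3 circles share their start and differ in their donor end.

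Illumina libraries held between 1516772 and 4308264 back-splice reads, and ONT libraries between 186594 and 673705 circle reads. Adar1-2KO replicate 3 stood apart, with the most reads but 21736 circles against 54244 to 76743 in the other 8 Illumina libraries. Of 847 member circles tested on Illumina, 467 were not listed in that library, and 64 to 164 were not listed in each of the others. Every listed circle had reads. An unlisted circle was counted as having no reads, so its absence was not measured. The 3 WT libraries, Adar2KO replicate 3 and Adar1-2KO replicate 2 were read mainly on the same flow cell, Adar2KO replicates 1 and 2 mainly on another, and Adar1-2KO replicate 3 on a pair of others. The flow cell of Adar1-2KO replicate 1 was not known here. Neuron marker hosts summed to between 24126 and 29094 CPM in every library, 4 of 5 microglia markers had no circle, and markers of liver, muscle and blood summed to at most 24.1 CPM. Circles of Adarb1, the ADAR2 gene, were read in every library (84 to 759 reads), with 94.8 to 184 CPM in the mutants and 42.7 to 62.3 CPM in WT. Where they lie relative to the deleted part is not given, so they do not show its loss. Gria2 circles had 155 to 204 CPM in the mutants and 290 to 342 CPM in WT. Those of Adar, the ADAR1 gene, overlapped, with 2.18 to 42.9 CPM in the mutants and 20.2 to 51.8 CPM in WT. The cause of these differences was not tested.

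Member circles took a like share of the circular RNA in each genotype on Illumina. There they held 2.84, 2.93 and 2.99% of back-splice reads in Adar1-2KO, 2.74, 2.91 and 2.62% in Adar2KO, and 2.85, 2.93 and 2.90% in WT. The ranges of the 3 genotypes overlapped. On ONT the share was 2.22, 2.31 and 2.15% in Adar1-2KO, 2.24, 1.90 and 1.89% in Adar2KO, and 1.92 and 2.27% in WT. The means were 2.23 ± 0.0805% in Adar1-2KO (SD, n = 3), 2.01 ± 0.201% in Adar2KO (n = 3) and 2.10 ± 0.242% in WT (n = 2). The main Phf21a circle was listed on ONT only in Adar1-2KO replicates 1 and 2, Adar2KO replicate 1 and WT replicate 3. Its presence moves these shares, and shares without it were not computed, so the ONT values do not compare the genotypes evenly.

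Most members lay among the more strongly read hosts of the brain. By mean WT level 5 of 52 were in the first 100 hosts on Illumina, 16 in the first 500 and 26 in the first 1000. Levels are given in CPM, which sets the reads on a host's junctions against those on all junctions in the same library and is scaled by TMM. It counts reads over junctions and is not divided by gene length, so it ranks circle output and not transcript abundance. The median member had 235 CPM in WT against 4.85 CPM for all hosts. The members spanned 11.2 CPM for Smarca5 to 4983 CPM for Phf21a, and the top 3 hosts held 43.1% of the summed level.

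The top 12 hosts were led by Phf21a, whose product BHC80 is a reader of unmethylated histone H3 in the LSD1-CoREST corepressor. Its level was 5323, 4879 and 5274 CPM in Adar1-2KO, 5363, 4836 and 4539 CPM in Adar2KO, and 5221, 4631 and 5096 CPM in WT. Nsd2, a methyltransferase of histone H3 lysine 36, had 3519, 3735 and 3948 CPM in Adar1-2KO, 3849, 4508 and 4000.3 CPM in Adar2KO, and 4370.1, 5411 and 4239 CPM in WT. Setd3, a SET-domain protein that methylates actin, had 2467, 2989 and 4458 CPM in Adar1-2KO, 3063, 3522 and 2755 CPM in Adar2KO, and 2900.4, 2853 and 2652 CPM in WT. These 3 hosts kept their place above the other members in all 9 libraries.

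Below them came 9 hosts between 569 and 1784 CPM in WT. In falling order of WT mean they were Ash1l, Kmt2a, Nsd3, Kmt2c, Ncoa2, Chd9, Chd2, Phf20 and Ncor1. Neighbours in this order often did not differ beyond their spread. Ash1l averaged 1784 ± 314 CPM and Kmt2a 1582 ± 446 CPM in WT (SD, n = 3), and Chd2 averaged 701 ± 37.4 CPM next to Phf20 with 697 ± 19.3 CPM. At the low end stood Hdac4 (41.1 ± 6.94 CPM), Trrap (39.9 ± 9.41 CPM), Arid2 (26.7 ± 6.71 CPM), Tet2 (19.6 ± 4.53 CPM) and Smarca5 (11.2 ± 8.01 CPM). None of the 52 was without a circle.

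**Figure D1:**
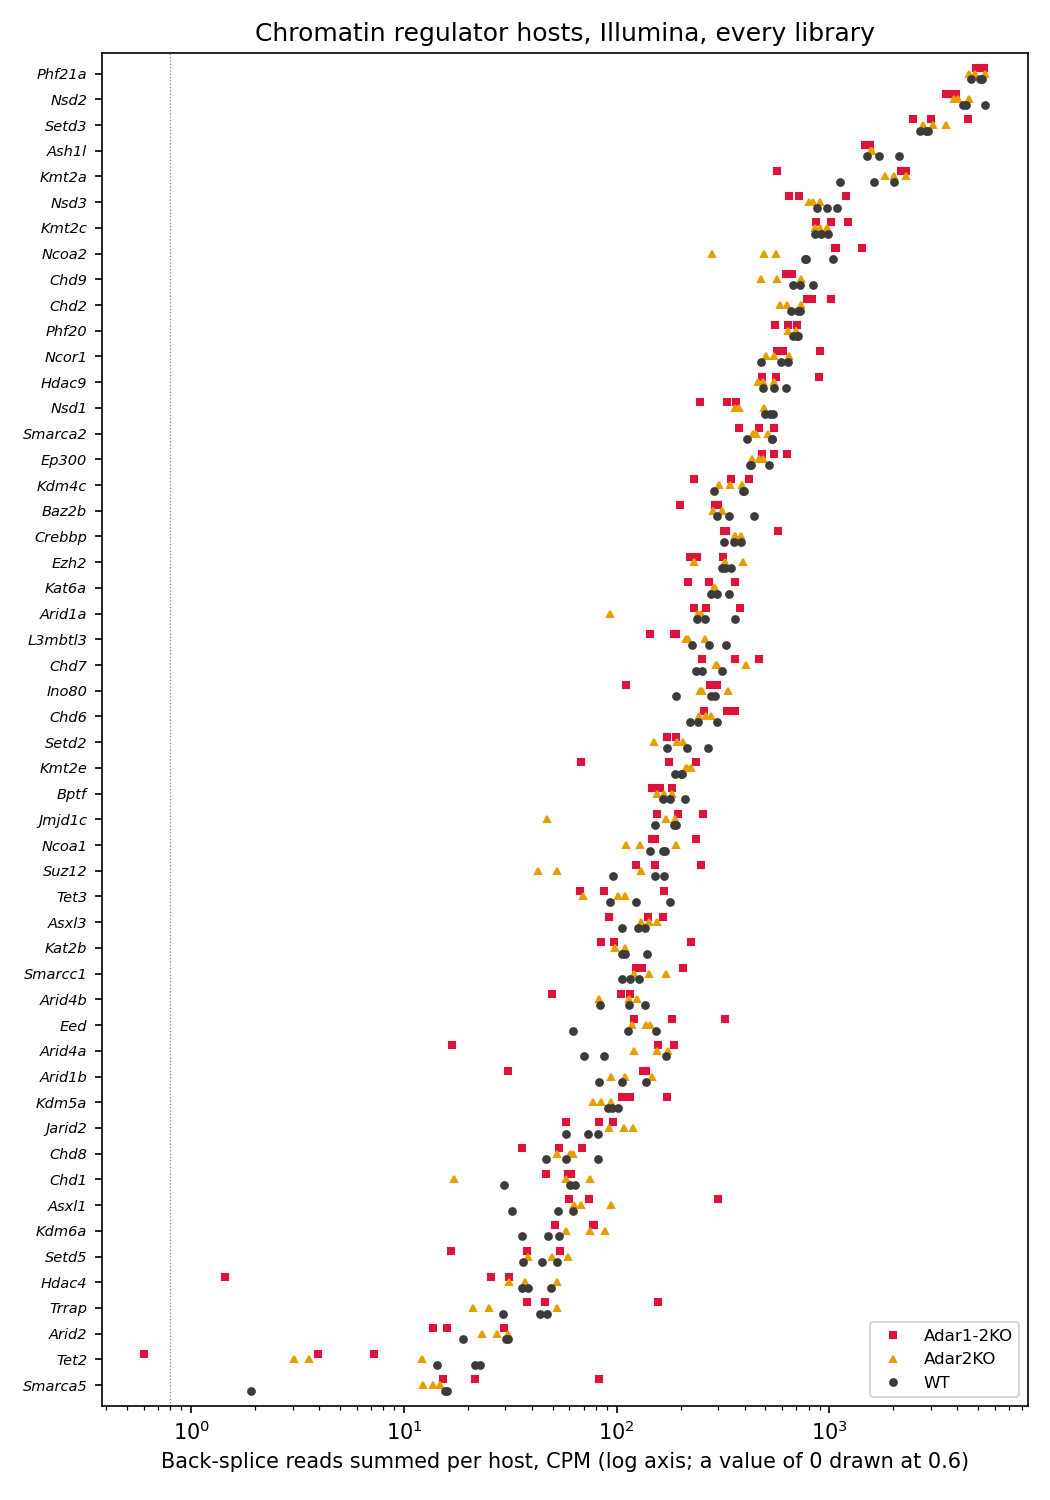
Back-splice level of each of the 52 hosts in CPM on a log axis, with 1 symbol per Illumina library, ordered by mean WT level and coloured by genotype (Adar1-2KO, Adar2KO, WT). Phf21a, Nsd2 and Setd3 lie highest, Smarca5 and Tet2 lowest, and for most hosts the symbols of the 3 genotypes overlap. A value of 0 is drawn at 0.6.

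Summed host levels were compared between genotypes with edgeR's quasi-likelihood F-test, with Benjamini-Hochberg adjustment over all 9918 hosts tested on Illumina. All 52 members passed the filter on low counts. Against WT, 0 of 52 passed an adjusted p of 0.05 in Adar1-2KO and 0 in Adar2KO, where 0.0807% and 0.0403% of all hosts tested were called. Between Adar1-2KO and Adar2KO 0 members passed, where 0.101% of all hosts were called. At an unadjusted p under 0.05 there were 5 members in Adar1-2KO against WT, 1 in Adar2KO against WT and 4 in Adar1-2KO against Adar2KO, or 7.29%, 1.6% and 6.62% of all hosts in the same order. DESeq2 called 0, 0 and 1 member in that order, and 0.524%, 0.192% and 0.958% of all hosts.

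The direction of the members was mixed. In Adar1-2KO against WT 28 of 52 had a positive log2 fold change, with a median of 0.07 against -0.07 for all hosts tested. In Adar2KO against WT 19 were positive, with a median of -0.06 against 0.02 for all. Both comparisons use the same WT libraries. All 3 Adar1-2KO libraries lay above all 3 WT libraries for Chd2, Kdm5a and Ncoa2, or 3 members, where 4.74% of all hosts did so. They lay below WT for 6, Chd9, Hdac4, L3mbtl3, Nsd1, Nsd2 and Tet2, where 8.99% of all hosts did. The Adar2KO libraries lay above WT for 4, Asxl1, Jarid2, Kdm6a and Kmt2e (6.05% of all hosts), and below WT for 3, Ncoa2, Nsd1 and Tet2 (5.51%). The Adar1-2KO libraries lay above the Adar2KO libraries for 4, Chd2, Kdm5a, Ncoa2 and Smarca5 (4.25%), and below them for 3, Ash1l, Hdac4 and L3mbtl3 (8.31%).

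On ONT 49 of 52 members passed the filter, and Arid1a, Smarca5 and Tet2 did not. Here 1 member rose in Adar1-2KO against Adar2KO, Ncoa2, where 0.638% of 5801 hosts were called in that direction and 0.965% in either. Against WT 0 of 49 passed in Adar1-2KO and 0 in Adar2KO, where 0.0345% and 0.069% of hosts were called. At an unadjusted p under 0.05 there were 8 and 4 members, where 10.4% and 5.65% of all hosts were, and DESeq2 called 1 and 1, where it called 1.31% and 0.241% of all hosts. Between Adar1-2KO and Adar2KO there were 6 at an unadjusted p under 0.05 (13.2% of all hosts), and DESeq2 called 3 (3.21%).

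**Figure D2:**
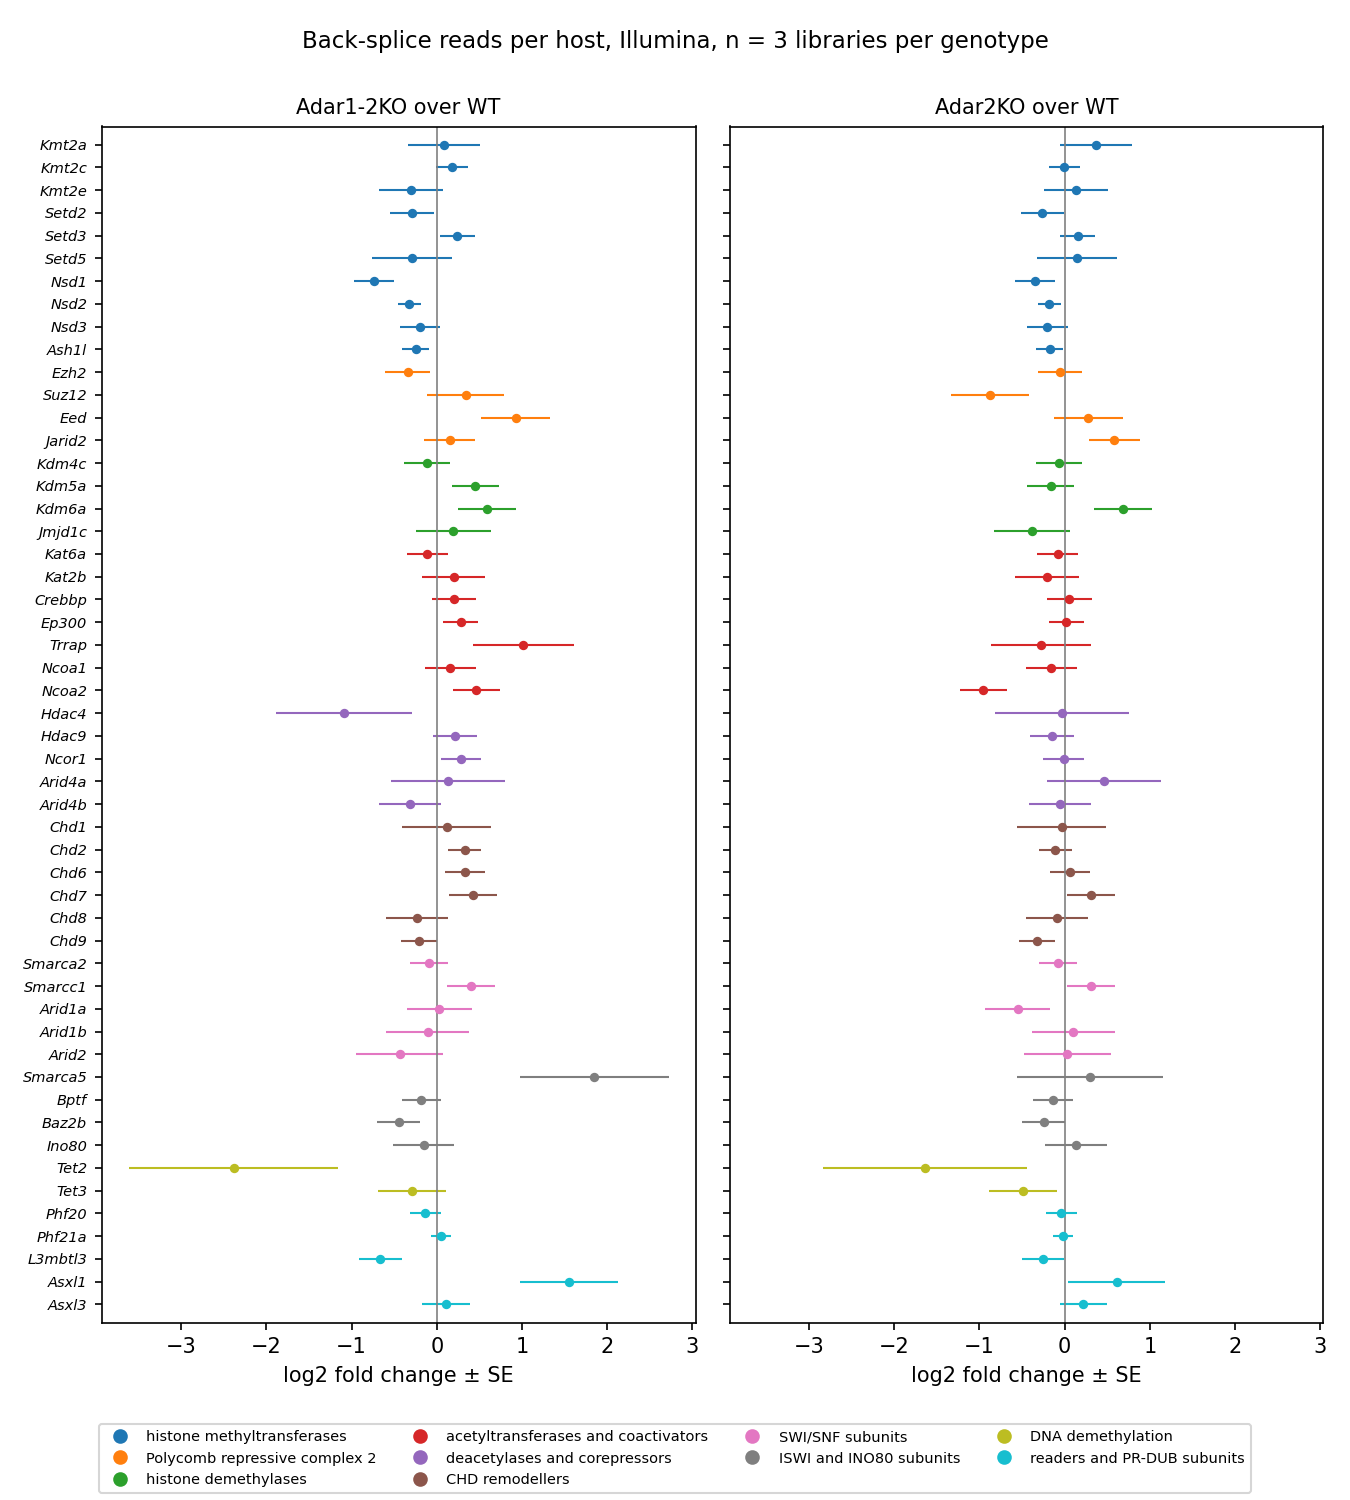
Log2 fold change of each host's summed back-splice reads on Illumina with a bar of 1 standard error to each side (n = 3 libraries per genotype), for Adar1-2KO against WT and Adar2KO against WT, grouped and coloured by class. Ncoa2 lies at 0.47 in Adar1-2KO and at -0.95 in Adar2KO, and no host passed the adjusted threshold.

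The histone methyltransferases and SET-domain proteins were the class with the most circle reads. Their summed level was 12794 ± 634 in Adar1-2KO, 13469.9 ± 572 in Adar2KO and 13717 ± 663 in WT (CPM, SD, n = 3 each). In Adar1-2KO 3 of 10 had a positive fold change against WT, with a median log2 value of -0.27, and in Adar2KO 4 of 10, with -0.09. Nsd1, which methylates histone H3 lysine 36, had 364, 329 and 247 CPM in Adar1-2KO, 378, 491 and 359 CPM in Adar2KO, and 523, 498 and 542 CPM in WT. All 3 Adar1-2KO libraries lay below all 3 WT libraries, with a log2 fold change of -0.73 ± 0.23 that did not pass (adjusted p = 0.643). The Adar2KO libraries also lay below WT, with -0.35 ± 0.23 (adjusted p = 1). Nsd2 stood at -0.32 ± 0.13 in Adar1-2KO (adjusted p = 0.673) and -0.18 ± 0.13 in Adar2KO (adjusted p = 1).

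Kmt2a, the MLL1 methyltransferase of histone H3 lysine 4, had 2177, 2287 and 569 CPM in Adar1-2KO, 2287, 1831 and 2005 CPM in Adar2KO, and 1612, 1122 and 2012 CPM in WT. The low value of Adar1-2KO replicate 3 sets it apart from both other libraries of its genotype, and the groups overlapped. Most of its reads were on 1 circle of exons 19 to 20 (chr9:44740081-44740568), which held 83.01% of the host's reads. Kmt2c, another methyltransferase of the same lysine, spread its reads over 183 circles and had 1014, 866 and 1221 CPM in Adar1-2KO, 907, 859.9 and 969.6 CPM in Adar2KO, and 910.4, 851 and 984 CPM in WT. Ash1l, which methylates histone H3 lysine 36, had 1467, 1486 and 1549 CPM in Adar1-2KO, 1569, 1593 and 1571 CPM in Adar2KO, and 1718, 2125 and 1507 CPM in WT. WT overlapped both mutants, while the 3 Adar1-2KO libraries lay below the 3 Adar2KO libraries. Setd2, which writes the trimethyl mark on the same lysine, averaged 179 ± 9.93 CPM in Adar1-2KO, 183 ± 29.1 CPM in Adar2KO and 219 ± 48.3 CPM in WT. Kmt2e, a SET-domain protein of the MLL family, averaged 159.7 ± 85.1 CPM in Adar1-2KO, 216 ± 7.13 CPM in Adar2KO and 197 ± 7.75 CPM in WT. Setd5, another SET-domain protein, averaged 36.3 ± 18.9 CPM in Adar1-2KO, 49.1 ± 10.4 CPM in Adar2KO and 44.4 ± 8.20 CPM in WT.

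The core and accessory subunits of Polycomb repressive complex 2, which methylates histone H3 lysine 27, summed to 719.7 ± 114 in Adar1-2KO, 629.8 ± 62.99 in Adar2KO and 646 ± 85.5 in WT (CPM). Ezh2 is its catalytic subunit and had 237, 315 and 221 CPM in Adar1-2KO, 230.4, 323 and 392 CPM in Adar2KO, and 343, 324 and 314 CPM in WT, with overlapping groups and a log2 fold change of -0.34 ± 0.26 in Adar1-2KO. Eed, the subunit that reads the mark, had 181, 121 and 322 CPM in Adar1-2KO, 118, 137 and 143 CPM in Adar2KO, and 153, 113 and 62.7 CPM in WT. Its log2 fold change of 0.92 ± 0.41 in Adar1-2KO against WT did not pass (adjusted p = 0.681), and the value without Adar1-2KO replicate 3, the highest library, was 0.46. Suz12, the scaffold subunit, had 151, 124 and 249 CPM in Adar1-2KO, 130.1, 42.7 and 52.7 CPM in Adar2KO, and 166, 96.7 and 151 CPM in WT. The Adar2KO libraries with 42.7 and 52.7 CPM were the lowest of the 9, and log2 fold changes were 1.22 ± 0.46 in Adar1-2KO against Adar2KO (adjusted p = 0.731) and -0.88 ± 0.46 in Adar2KO against WT (adjusted p = 1). Between the mutants it was 0.87 without Adar1-2KO replicate 3 and 1.89 without Adar2KO replicate 1. Jarid2, an accessory subunit, had 96.2, 82.9 and 57.8 CPM in Adar1-2KO, 92.2, 119.9 and 108 CPM in Adar2KO, and 82.04, 57.6 and 73.7 CPM in WT, and its 3 Adar2KO libraries lay above the 3 WT libraries (log2 fold change 0.59 ± 0.30, adjusted p = 1).

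Histone demethylases summed to 733 ± 125 in Adar1-2KO, 638 ± 33.7 in Adar2KO and 677 ± 56.7 in WT (CPM). Kdm6a, an X-linked demethylase of histone H3 lysine 27, had 78.3, 77.2 and 51.5 CPM in Adar1-2KO, 75, 57.5 and 88.2 CPM in Adar2KO, and 53.4, 47.7 and 35.9 CPM in WT. The 3 Adar2KO libraries lay above WT, and so did 2 of the Adar1-2KO libraries, while Adar1-2KO replicate 3 lay within the WT range. Its log2 fold changes of 0.59 ± 0.34 in Adar1-2KO and 0.69 ± 0.34 in Adar2KO did not pass (adjusted p = 0.74 and 1). Kdm5a, a demethylase of histone H3 lysine 4, had 115, 106 and 172 CPM in Adar1-2KO, 94.5, 84.6 and 77.1 CPM in Adar2KO, and 94.8, 91.2 and 101 CPM in WT. All 3 Adar1-2KO libraries lay above the others, with a log2 fold change of 0.45 ± 0.28 against WT and 0.62 ± 0.28 against Adar2KO (adjusted p = 0.778 and 0.737). Its circle of exon 19 (chr6:120389116-120389471) had 365 of its 381 reads in Adar1-2KO replicate 3, and without that library the value against Adar2KO was 0.37. Kdm4c, a demethylase of histone H3 lysines 9 and 36, and Jmjd1c, a JmjC-domain protein, had log2 fold changes of -0.12 ± 0.27 and 0.19 ± 0.44 in Adar1-2KO and of -0.06 ± 0.27 and -0.38 ± 0.44 in Adar2KO.

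The acetyltransferases and coactivators summed to 2823 ± 622 in Adar1-2KO, 1839 ± 147 in Adar2KO and 2292 ± 96.3 in WT (CPM), and Ncoa2 was the 1 member that passed on ONT. It encodes a p160 coactivator of nuclear receptors that recruits acetyltransferases. On ONT its level was 1544, 1403 and 1527 CPM in Adar1-2KO, 512, 325 and 167 CPM in Adar2KO, and 795 and 916 CPM in WT. The 3 genotypes did not overlap, with Adar1-2KO highest and Adar2KO lowest. The rise in Adar1-2KO against Adar2KO passed, with a log2 fold change of 2.16 ± 0.31 (edgeR quasi-likelihood test, adjusted p = 0.00671). It ranged from 1.84 to 2.57 when any 1 library was left out, and without Adar2KO replicate 2 it no longer passed (2.15, adjusted p = 0.0678). Against WT the values were 0.80 ± 0.34 in Adar1-2KO (adjusted p = 0.434) and -1.36 ± 0.33 in Adar2KO (adjusted p = 0.421, or 0.0229 by DESeq2).

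On Illumina Ncoa2 had 1069.5, 1061 and 1429 CPM in Adar1-2KO, 559, 491 and 280.1 CPM in Adar2KO, and 774, 767 and 1038 CPM in WT. The genotypes again did not overlap, in the same order. The log2 fold change of Adar1-2KO against Adar2KO was 1.42 ± 0.28 and did not pass with edgeR (adjusted p = 0.167), while DESeq2 gave an adjusted p of 0.00342. Against WT it was 0.47 ± 0.27 in Adar1-2KO (adjusted p = 0.754) and -0.95 ± 0.27 in Adar2KO (adjusted p = 1). On the first flow cell, with 1 library of each mutant and hence no replicate of either, the value of Adar1-2KO against Adar2KO was 1.93.

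The main Ncoa2 circle joins exon 4 back to exon 2 (chr1:13291531-13356249, minus strand, 335 bases of exon) and held 75.8% of the host's reads. On Illumina the Adar1-2KO libraries had 2988, 1978 and 4085 of its reads, the Adar2KO libraries 1047, 811 and 370, and the WT libraries 2024, 1366 and 1385. Scaled to library size this was 887, 869.6 and 992 CPM in Adar1-2KO, 406, 352 and 124 CPM in Adar2KO, and 643, 607 and 869 CPM in WT, with every Adar2KO library below every other. Its log2 fold change of Adar1-2KO against Adar2KO was 1.64 ± 0.34 on Illumina and did not pass (adjusted p = 0.249).

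On ONT the same Ncoa2 circle had 589, 357 and 762 reads in Adar1-2KO, 166, 104 and 50 in Adar2KO, and 143 and 141 in WT, or 1401, 1219 and 1176 CPM in Adar1-2KO, 445, 248 and 116 CPM in Adar2KO, and 659.5 and 692 CPM in WT. It rose in Adar1-2KO against Adar2KO by 2.23 ± 0.39 on the log2 scale (edgeR, adjusted p = 0.0331). The adjusted p stayed under 0.05 without Adar1-2KO replicate 3 (0.0229) and without Adar2KO replicate 1 (0.0402). It was 0.123 without Adar1-2KO replicate 1, 0.108 without Adar1-2KO replicate 2, 0.189 without Adar2KO replicate 2, 0.0743 without Adar2KO replicate 3, 0.128 without WT replicate 2 and 0.106 without WT replicate 3.

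Another Ncoa2 circle uses the same donor end but starts at exon 3 (chr1:13291531-13294937, 278 bases of exon). On Illumina it had 129, 135 and 201 CPM in Adar1-2KO, 115, 102 and 128 CPM in Adar2KO, and 85.4, 93.3 and 84.7 CPM in WT. The Adar2KO libraries lay above the WT libraries for this circle and below them for the circle of exons 2 to 4, and neither difference passed (log2 fold change 0.39 ± 0.36, adjusted p = 1, and -1.27 ± 0.33, adjusted p = 1). On ONT the exon 3 to 4 circle had 90.4, 85.3 and 109.6 CPM in Adar1-2KO, 18.8, 14.3 and 25.4 CPM in Adar2KO, and 18.4 and 58.9 CPM in WT, where Adar2KO and WT overlapped. A longer circle of exons 2 to 6 had 22, 23 and 435 reads in Adar1-2KO, 7, 8 and 2 in Adar2KO, and 11, 19 and 6 in WT on Illumina, most of them in Adar1-2KO replicate 3.

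**Figure D3:**
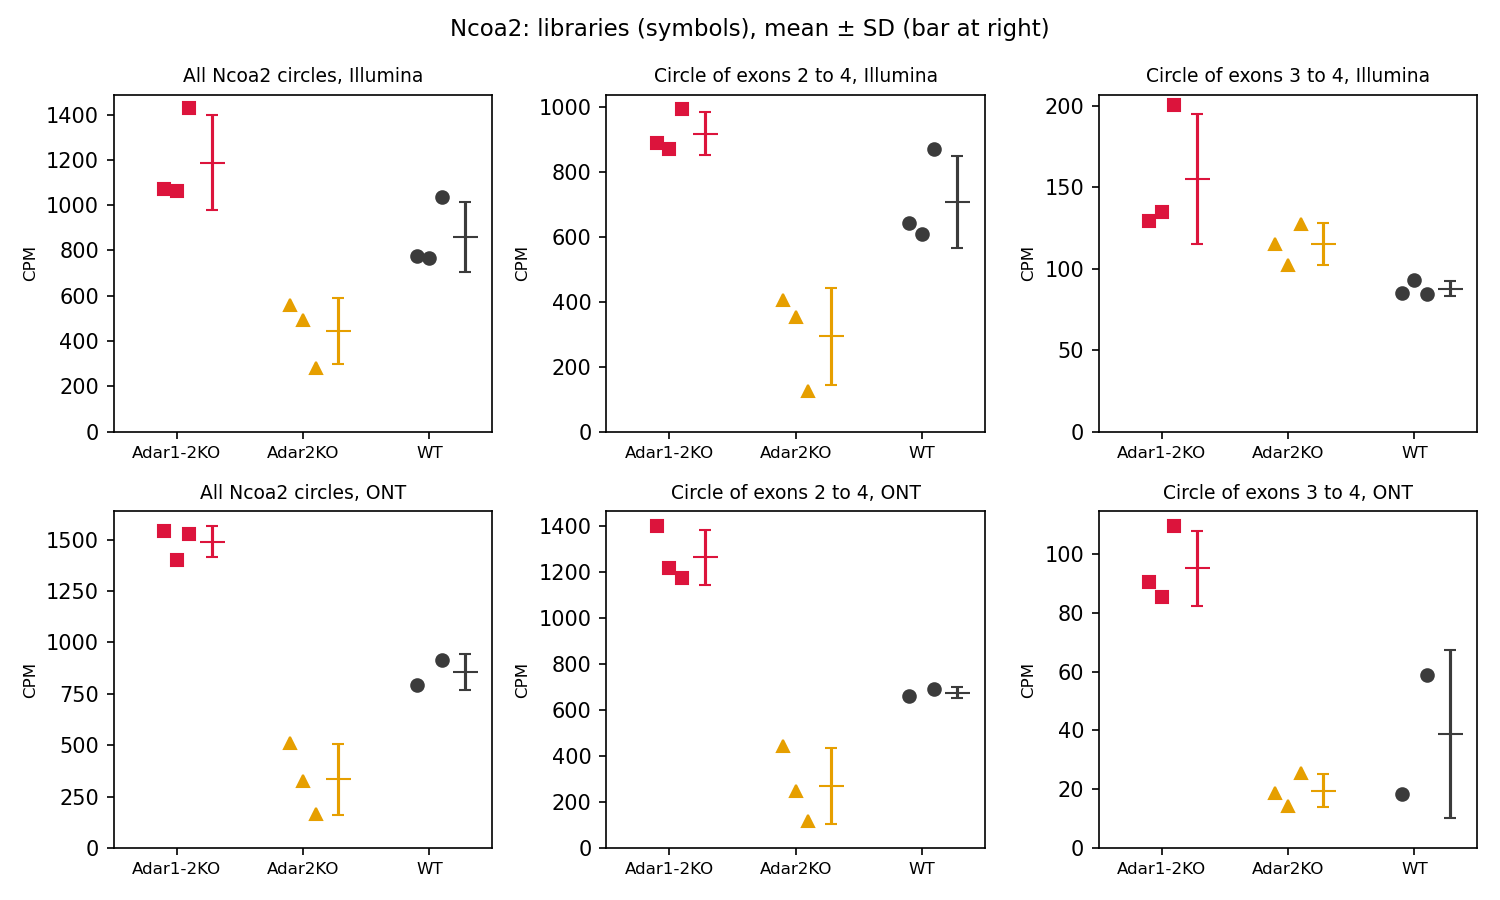
Level of the Ncoa2 host and of its circles in CPM, with 1 symbol per library and the mean and SD as a bar at its right, by genotype and platform. For the host and the circle of exons 2 to 4 the Adar2KO libraries lie below all others on both platforms, while the circle of exons 3 to 4 does not show this on Illumina.

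None of the other coactivators passed in any comparison. Ep300, an acetyltransferase, had 631, 483 and 550.0 CPM in Adar1-2KO, 489, 466 and 435 CPM in Adar2KO, and 521, 422 and 430.1 CPM in WT. Its paralog Crebbp had 328, 318 and 571 CPM in Adar1-2KO, 383, 358 and 358 CPM in Adar2KO, and 383, 355 and 320.4 CPM in WT. The groups of both hosts overlapped, and log2 fold changes in Adar1-2KO against WT were 0.28 ± 0.21 and 0.20 ± 0.26. Kat2b, the acetyltransferase PCAF, and Kat6a, the acetyltransferase MOZ, had 0.20 ± 0.37 and -0.11 ± 0.24 in Adar1-2KO and -0.21 ± 0.37 and -0.08 ± 0.24 in Adar2KO. Trrap, a scaffold of acetyltransferase complexes, had 45.9, 37.9 and 157 CPM in Adar1-2KO, 21.05, 52.7 and 25.1 CPM in Adar2KO, and 29.3, 43.6 and 46.99 CPM in WT, where Adar1-2KO replicate 3 was the high library. Its log2 fold change against WT was 1.01 ± 0.59 in Adar1-2KO (adjusted p = 0.749), and 643 of the 803 reads of its main circle came from that library. Ncoa1, the paralog of Ncoa2, had 151, 147 and 236 CPM in Adar1-2KO, 111, 129 and 189.7 CPM in Adar2KO, and 144, 169 and 166 CPM in WT, with no separation of Adar1-2KO from WT.

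Deacetylases and corepressors summed to 1565 ± 262 in Adar1-2KO, 1363 ± 73.8 in Adar2KO and 1386 ± 59.6 in WT (CPM). Ncor1, the nuclear receptor corepressor, was read over 208 circles, of which the main one held 13.1%, the lowest such share of any member. Its level was 566, 606 and 906 CPM in Adar1-2KO, 643, 548 and 503 CPM in Adar2KO, and 639, 591 and 477 CPM in WT, with a log2 fold change of 0.28 ± 0.24 in Adar1-2KO. Hdac9, a class IIa deacetylase, had 481, 562 and 889 CPM in Adar1-2KO, 464, 551 and 487 CPM in Adar2KO, and 486, 552 and 628 CPM in WT, with a log2 fold change of -0.15 ± 0.26 in Adar2KO. Hdac4, of the same class, had 31.2, 25.6 and 1.45 CPM in Adar1-2KO, 37.1, 52.3 and 31.2 CPM in Adar2KO, and 48.97, 35.9 and 38.5 CPM in WT, with Adar1-2KO replicate 3 far below the others and a log2 fold change of -1.09 ± 0.80 that did not pass (adjusted p = 0.836). Arid4a and Arid4b, subunits of the SIN3 deacetylase complex, had 0.14 ± 0.67 and -0.31 ± 0.37 in Adar1-2KO, and 0.46 ± 0.67 and -0.06 ± 0.37 in Adar2KO.

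The CHD remodellers, ATPases with chromodomains that move nucleosomes, summed to 2310.4 ± 278 in Adar1-2KO, 1947 ± 256 in Adar2KO and 2079 ± 44.4 in WT (CPM). Chd2 had 831, 787 and 1017 CPM in Adar1-2KO, 632, 732 and 587 CPM in Adar2KO, and 716, 728 and 658 CPM in WT, and all 3 Adar1-2KO libraries lay above the others. Its log2 fold change was 0.33 ± 0.19 against WT and 0.43 ± 0.19 against Adar2KO, and neither passed (adjusted p = 0.749 and 0.737). Chd2 held the most circles of any member, 224. Chd9 had 666, 629 and 649.7 CPM in Adar1-2KO, 570.2, 737 and 477 CPM in Adar2KO, and 731, 838 and 671 CPM in WT, with a log2 fold change of -0.20 ± 0.21 in Adar1-2KO and -0.33 ± 0.21 in Adar2KO. Chd7, mutated in CHARGE syndrome in humans, had 251, 359.5 and 465 CPM in Adar1-2KO, 296, 405 and 292 CPM in Adar2KO, and 252, 236 and 313 CPM in WT, with 0.43 ± 0.28 in Adar1-2KO and 0.31 ± 0.28 in Adar2KO.

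Chd6 gave a larger difference on ONT than on Illumina. On ONT it had 272, 281 and 296 CPM in Adar1-2KO, 129, 147 and 109 CPM in Adar2KO, and 184 and 167 CPM in WT, with every Adar1-2KO library above every other. The log2 fold change of Adar1-2KO against Adar2KO was 1.14 ± 0.25 and just missed the threshold with edgeR (adjusted p = 0.0518), while DESeq2 gave 0.00385. Leaving out any 1 library gave 1.04 to 1.26. The adjusted p was 0.0169 without Adar1-2KO replicate 3 and from 0.104 to 0.266 without any other library. On Illumina the same comparison gave 0.27 ± 0.23 (adjusted p = 0.923). Chd1 and Chd8 had fold changes of 0.12 ± 0.52 and -0.24 ± 0.36 in Adar1-2KO, and of -0.03 ± 0.52 and -0.08 ± 0.36 in Adar2KO.

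The SWI/SNF subunits summed to 1030.3 ± 153 in Adar1-2KO, 952 ± 117 in Adar2KO and 1032 ± 89.98 in WT (CPM) and none separated the genotypes on Illumina. Smarca2, an ATPase of the complex, had 376, 551 and 466 CPM in Adar1-2KO, 453, 515 and 437 CPM in Adar2KO, and 410.2, 539 and 536 CPM in WT. Smarcc1, a scaffold subunit, had 0.40 ± 0.28 in Adar1-2KO and 0.31 ± 0.28 in Adar2KO. Arid1a, a DNA-binding subunit, was read almost wholly on 1 circle of exons 2 to 4 (chr4:133446848-133450362), with 97.5% of its reads, the highest share of any member. Its level was 264, 379.8 and 231 CPM in Adar1-2KO, 92.6, 242 and 249.5 CPM in Adar2KO, and 239.8, 259 and 358 CPM in WT, and the low library was Adar2KO replicate 1 (log2 fold change in Adar2KO -0.55 ± 0.38, adjusted p = 1). The related Arid1b and Arid2 had -0.11 ± 0.49 and -0.44 ± 0.51 in Adar1-2KO.

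The ISWI and INO80 group summed to 692 ± 103 in Adar1-2KO, 761 ± 68.3 in Adar2KO and 807 ± 46.8 in WT (CPM). Baz2b, a bromodomain protein, had 298, 291 and 199 CPM in Adar1-2KO, 313, 284 and 311 CPM in Adar2KO, and 298, 441 and 337 CPM in WT, with a log2 fold change of -0.45 ± 0.25 in Adar1-2KO (adjusted p = 0.737). Bptf, the reader subunit of the NURF remodeller, had 159, 147 and 182 CPM in Adar1-2KO, 182, 166 and 155 CPM in Adar2KO, and 165, 179 and 209 CPM in WT, and Ino80, an ATPase, 276, 295 and 110.5 CPM in Adar1-2KO, 333, 247 and 253 CPM in Adar2KO, and 289, 191 and 279 CPM in WT. Their groups overlapped in both mutants against WT. Smarca5, the ISWI ATPase SNF2H, had 15.3, 21.6 and 82.4 CPM in Adar1-2KO, 12.2, 14.8 and 13.7 CPM in Adar2KO, and 1.91, 15.9 and 15.7 CPM in WT, and 341 of the 345 reads of its main circle came from Adar1-2KO replicate 3.

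The TET dioxygenases, which oxidise methylated cytosine, were read weakly, with sums of 111 ± 49.2 in Adar1-2KO, 100.0 ± 24.8 in Adar2KO and 151 ± 44.4 in WT (CPM). Tet3 had 67.3, 87.3 and 167 CPM in Adar1-2KO, 102, 109.8 and 69.6 CPM in Adar2KO, and 93.2, 178 and 123 CPM in WT on Illumina, with overlapping groups and -0.29 ± 0.40 in Adar1-2KO. On ONT it had 36, 83.3 and 61.2 CPM in Adar1-2KO, 137, 224 and 135 CPM in Adar2KO, and 164 and 286 CPM in WT, and every Adar1-2KO library lay below every other. The log2 fold change against WT was -1.91 ± 0.43 and did not pass with edgeR (adjusted p = 0.13), while DESeq2 gave 0.0154. Leaving out any 1 library gave -2.27 to -1.45. The adjusted p was 0.0341 without Adar1-2KO replicate 3 and from 0.164 to 0.614 without any other library. Tet2 had 7.22, 3.97 and 0 CPM in Adar1-2KO, 3.06, 12.2 and 3.58 CPM in Adar2KO, and 21.6, 22.7 and 14.4 CPM in WT, below WT in all 6 mutant libraries, but the spread was wide and neither mutant passed (log2 fold change -2.39 ± 1.23 in Adar1-2KO, adjusted p = 0.706, and -1.64 ± 1.20 in Adar2KO, adjusted p = 1).

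The readers and subunits of the PR-DUB deubiquitinase summed to 6243 ± 346 in Adar1-2KO, 6039 ± 389 in Adar2KO and 6126 ± 264 in WT (CPM). Phf21a made up most of this sum and differed little, with 0.05 ± 0.11 in Adar1-2KO and -0.02 ± 0.11 in Adar2KO. Phf20, a reader of the NSL acetyltransferase complex, had 639, 558 and 707 CPM in Adar1-2KO, 642, 699 and 694 CPM in Adar2KO, and 712, 704 and 675 CPM in WT. Asxl1, a subunit of PR-DUB, had 73.96, 59.99 and 299 CPM in Adar1-2KO, 68.1, 63.2 and 94.4 CPM in Adar2KO, and 62.6, 32.2 and 52.9 CPM in WT. Its log2 fold change of 1.55 ± 0.57 in Adar1-2KO did not pass (adjusted p = 0.651) and was 0.44 without Adar1-2KO replicate 3. Asxl3, its paralog on chromosome 18, had 0.11 ± 0.28 in Adar1-2KO and 0.22 ± 0.28 in Adar2KO.

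L3mbtl3 held the 1 member circle that fell on Illumina by edgeR. The gene encodes a reader of methylated lysine with MBT repeats. The circle of exons 2 to 17 (chr10:26178551-26228273, minus strand, 1751 bases of annotated exon, and 1119 or 1676 bases as spliced on ONT) had 0, 0 and 0 reads in Adar1-2KO, 81, 84 and 69 in Adar2KO, and 65, 59 and 38 in WT. All 6 Adar2KO and WT libraries listed it. No Adar1-2KO library did, and each was counted as 0, which is not a measured absence. With 3 reads put in for each 0 its mean level was 24.1-fold lower than in WT and 30.9-fold lower than in Adar2KO. These values depend on that choice and are no lower bound. Every Illumina library had tested member circles at 0 with a mean over 50 elsewhere. Their number ran from 1 in Adar1-2KO replicate 1 to 13 in WT replicate 2. edgeR's quasi-likelihood test over all 38297 circles gave an adjusted p of 0.0305 against WT and 0.0415 against Adar2KO, and DESeq2 gave 5.21e-07 and 2.30e-07. The deposited CIRI2 counts were 0 and 0 in Adar1-2KO replicates 2 and 3 (those of replicate 1 were not analysed here), 105, 115 and 108 in Adar2KO, and 135, 113 and 54 in WT, and edgeR gave an adjusted p of 0.0265 against WT on them. They count reads of the same Illumina libraries, so they are not an independent measurement of the circle.

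ONT did not show the same L3mbtl3 difference at that size. It had 5, 5 and 0 reads in Adar1-2KO, 12, 16 and 13 in Adar2KO, and 19 and 7 in WT, so 2 of the Adar1-2KO libraries held the circle. The log2 fold changes were -2.74 ± 1.09 against WT and -1.88 ± 1.002 against Adar2KO, and did not pass (adjusted p = 0.619 and 0.578). In the Illumina fit the adjusted p against WT stayed under 0.05 without Adar1-2KO replicate 3 (0.0102). It was 0.0672 and 0.0816 without Adar1-2KO replicates 1 and 2, 0.123, 0.127 and 0.0967 without Adar2KO replicates 1, 2 and 3, and 0.1197, 0.182 and 0.135 without WT replicates 1, 2 and 3. Against Adar2KO it stayed under 0.05 without Adar1-2KO replicate 3 (0.0142) and ranged from 0.0736 to 0.223 without any other library. On the first flow cell Adar1-2KO replicate 2 had 0 reads, Adar2KO replicate 3 had 69, and the WT libraries had 65, 59 and 38. With 1 library of each mutant there, no test of the replicates can be had.

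The main L3mbtl3 circle of exons 2 to 12 (chr10:26203585-26228273, 1259 bases of annotated exon and 1184 on ONT) starts at the same exon and was present in every library, with 414, 316 and 527 reads in Adar1-2KO, 335, 386 and 424 in Adar2KO, and 456, 512 and 281 in WT. Scaled to library size the Adar1-2KO libraries overlapped Adar2KO and lay below WT, and the log2 fold change of Adar1-2KO against WT was -0.49 ± 0.32 (adjusted p = 0.948). The host as a whole had 186, 191 and 143 CPM in Adar1-2KO, 217, 260.2 and 213 CPM in Adar2KO, and 227, 325 and 271 CPM in WT. All 3 Adar1-2KO libraries lay below the other 6, with a log2 fold change of -0.66 ± 0.25 against WT that did not pass (adjusted p = 0.653).

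Nsd3, a methyltransferase of histone H3 lysine 36, had the other member circle that rose on ONT. This circle is exon 2 alone (chr8:26130593-26131341, plus strand, 749 bases). On ONT it had 96, 52 and 153 reads in Adar1-2KO, 24, 18 and 32 in Adar2KO, and 29 and 33 in WT, or 228, 177 and 236 CPM in Adar1-2KO, 64.3, 42.9 and 73.99 CPM in Adar2KO, and 134 and 162 CPM in WT. Every Adar1-2KO library lay above every Adar2KO library, and the log2 fold change was 1.82 ± 0.32 (adjusted p = 0.0331). The adjusted p was 0.0181 without Adar1-2KO replicate 3. It was 0.113 and 0.0718 without Adar1-2KO replicates 1 and 2, 0.162, 0.133 and 0.156 without Adar2KO replicates 1, 2 and 3, and 0.0890 and 0.0958 without WT replicates 2 and 3.

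On Illumina the Nsd3 exon 2 circle had 461, 221 and 1251 reads in Adar1-2KO, 337, 238 and 533 in Adar2KO, and 528, 309 and 275 in WT, or 137, 97.2 and 304 CPM in Adar1-2KO, 131, 103 and 178 CPM in Adar2KO, and 168, 137 and 172 CPM in WT. The groups overlapped, with a log2 fold change of 0.39 ± 0.42 (adjusted p = 1) that was -0.20 without Adar1-2KO replicate 3. The main Nsd3 circle of exons 2 to 4 shares the acceptor end and had 402, 386 and 464 CPM in Adar1-2KO, 241, 331 and 268 CPM in Adar2KO, and 351 and 344 CPM in WT on ONT. Its log2 fold change of Adar1-2KO against Adar2KO there was 0.58 ± 0.22 (adjusted p = 0.358).

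**Figure D4:**
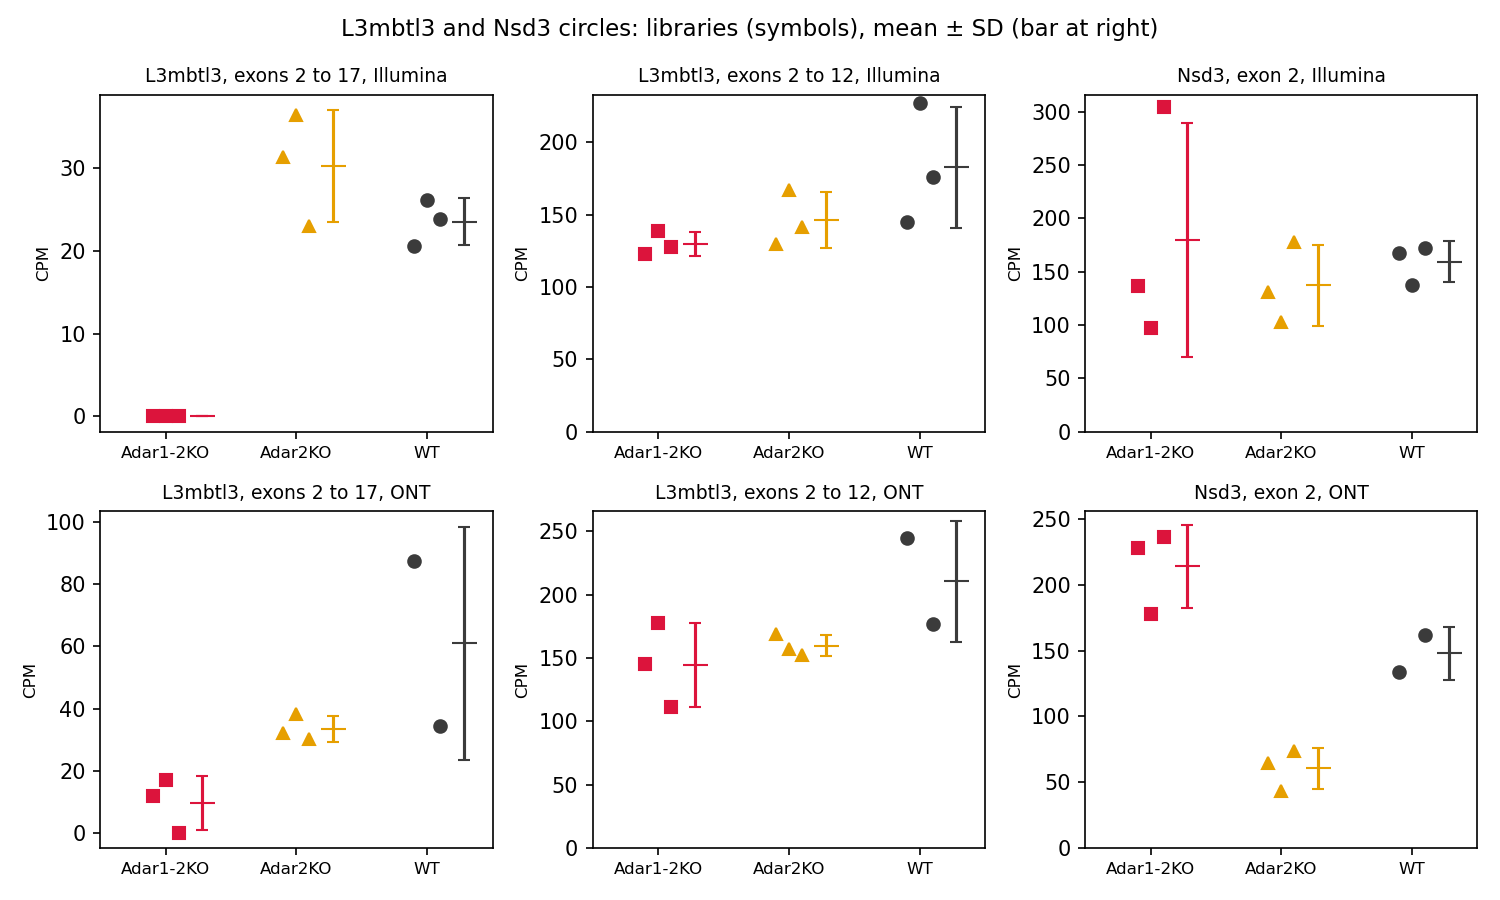
Level of L3mbtl3 and Nsd3 circles in CPM, with 1 symbol per library and the mean and SD as a bar at its right, by genotype and platform. The L3mbtl3 circle of exons 2 to 17 is at 0 in the 3 Adar1-2KO libraries on Illumina and not on ONT, and the Nsd3 exon 2 circle is higher in Adar1-2KO than in Adar2KO on ONT while the groups overlap on Illumina.

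Over all member circles 847 of 3707 on Illumina and 213 of 1491 on ONT passed the filter and were tested. On Illumina 1 fell in Adar1-2KO against WT and 1 against Adar2KO, in both the L3mbtl3 circle, where 0.0392% and 0.0157% of 38297 circles fell and 0.0627% and 0.0209% changed in either direction. In Adar2KO against WT 0 passed, where 0.0209% of all were called, with 7 at an unadjusted p under 0.05 (1.82% of all circles) and 0 by DESeq2 (0.094%). In Adar1-2KO 42 had an unadjusted p under 0.05 against WT and 50 against Adar2KO, where 6.74% and 6.38% of all circles had one. DESeq2 called 4 member circles in Adar1-2KO against WT (0.488% of all) and 7 against Adar2KO (0.465%). The other 3 against WT were circles of Smarca2, Hdac4 and Bptf, which also fell. Their log2 fold changes were -8.12, -7.47 and -7.03 (DESeq2, adjusted p = 1.17e-05, 0.000205 and 0.00234).

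On ONT 2 circles rose in Adar1-2KO against Adar2KO, those of Ncoa2 and Nsd3, where 0.367% of 10367 circles did and 0.492% changed in either direction. In Adar1-2KO and in Adar2KO against WT 0 passed with edgeR, where 0% and 0.00965% of all were called. At an unadjusted p under 0.05 there were 18 and 8 member circles (7.49% and 4.28% of all circles), and DESeq2 called 0 and 1 (0.453% and 0.106%). Between Adar1-2KO and Adar2KO there were 23 (10.6%), and DESeq2 called 6 (1.82%).

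The authors' deposited table of Adar1-2KO against WT lists 2996 member circles, of which 2 have an adjusted p under 0.05, where 0.0336% of its 160909 circles do. In the authors' deposited table the L3mbtl3 circle of exons 2 to 17 has a log2 fold change of -6.53 with a standard error of 1.39 and an adjusted p of 0.0113. The other in the authors' deposited table is a circle of Smarca2 (chr19:26624421-26641504) with -6.12 and 0.0444. The authors' deposited table of Adar2KO against WT lists 772 circles, of which 11 are of members, and 0 of these 11 have an adjusted p under 0.05, where 5.96% of the table do. All 11, of which 3 are up and 8 down, have an unadjusted DESeq2 p under 0.05. The list thus appears to be cut at that p. Its 5.96% is then a share of selected circles and cannot be set beside the 0.0336% of the other table.

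Main circles of members started at exon 2 or 3 in 29 of 51 hosts (56.9%), and in 53.0% of 6248 other tested hosts whose main circle matched annotated exons. Of the 52 main circles, those with the most back-splice reads in each host, 51 were of the exon class and matched annotated exons, and the Arid1b main circle lay in an intron. The first exon of the circle was exon 2 in 21 hosts and exon 3 in 8, and never exon 1. Where a transcript offered a later first exon, the matching took it over exon 1, so the absence of exon 1 is partly set by that rule. One exon alone made up 8 circles and 2 exons made up 13. The median was 3 exons and the longest was the Ezh2 circle of exons 2 to 15. Exonic length ran from 112 bases in Suz12 to 3206 in Tet2, with a median of 635, and 17 of the circles held the annotated start codon. On ONT 40 of the 46 main circles with an isoform length had one equal to the sum of the annotated exons.

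Hosts differed in how far 1 circle dominated. The main circle held a median of 40.0% of a host's reads, from 13.1% in Ncor1 to 97.5% in Arid1a, against a median of 51.0% over the other tested hosts. Members had a median of 62.5 circles per host, from 5 in Tet2 to 224 in Chd2, against 11 in other tested hosts. Members and other hosts were not matched for read level, with a WT median on Illumina of 235 CPM for members and 4.85 CPM for all hosts. These differences are therefore not shown to be traits of the members. Other circles of a host could share an end with the main one. A median of 5 others used the main circle's acceptor and held 5.51% of host reads, and 3 used its donor and held 1.94%. In Nsd2 13 other circles used the main acceptor and held 39.4% of reads, among them a circle of exons 3 to 10 (chr5:34000456-34026222) with 1158, 1181 and 808 CPM in Adar1-2KO, 1232, 1569 and 1325 CPM in Adar2KO, and 1572, 1891 and 1262 CPM in WT.

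The most read member circles in WT were those of Phf21a exons 2 to 6, Setd3 exons 2 to 6, Nsd2 exons 3 to 4, Nsd2 exons 3 to 10 and Kmt2a exons 19 to 20. The Phf21a circle (chr2:92044394-92061069, 396 bases of exon) averaged 4982 ± 290.2 CPM in Adar1-2KO, 4706 ± 402 CPM in Adar2KO and 4674 ± 304 CPM in WT (SD, n = 3 each). The Setd3 circle (chr12:108124013-108131431, 682 bases) averaged 3186 ± 934 CPM in Adar1-2KO, 3041 ± 340.1 CPM in Adar2KO and 2667 ± 166 CPM in WT, and the Nsd2 circle of exons 3 to 4 (chr5:34000456-34003611, 789 bases) 2404 ± 332 CPM in Adar1-2KO, 2408 ± 76.6 CPM in Adar2KO and 2562 ± 263 CPM in WT. Next came circles of Ash1l exons 3 to 4, Ncoa2 exons 2 to 4, Ash1l exon 4, Nsd3 exons 2 to 4, Nsd1 exons 3 to 5, Arid1a exons 2 to 4 and Kmt2c exons 24 to 25, between 247 and 706 CPM in WT. None of these 12 passed the test on Illumina in any comparison.

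The junction ratio tells how much of the reads at a circle's ends are circular. The authors' tables give it as a fraction, in which 2 times the back-splice reads are set against that number plus the reads spliced forward from the same ends. All 553333 listed values followed this formula within 0.001, and the ratio is printed here in percent. RNase R digestion comes before it, so it describes the digested RNA and not the brain. The median over main circles was 96.1, 97.5 and 91.5% in Adar1-2KO, 99.9, 96.2 and 95.1% in Adar2KO, and 96.6, 94.7 and 87.8% in WT, so the libraries of the 3 genotypes overlapped. Over all circles the medians were 28.6, 27.6 and 35.5% in Adar1-2KO, 27.0, 26.0 and 28.1% in Adar2KO, and 27.1, 23.7 and 27.7% in WT. Main circles were chosen for having the most back-splice reads in their host, so these medians are of unlike sets. The ratio of main circles in other hosts was not measured here, so a high ratio is not shown to be a trait of the members. Of 49 main circles listed in all 3 WT libraries 22 were at 90% or more in each, 13 at 100% in each, and 2 under 50% in each.

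Junction ratios ranged widely between hosts. The main circles of Kdm4c, Nsd1 and Phf21a were at 100% in every library. The lowest were Trrap exons 2 to 8, with 48.1, 3.40 and 44.7% in Adar1-2KO, 2.10 and 6.90% in Adar2KO, and 1.20, 9.20 and 27.1% in WT, Setd5 exons 2 to 6, with 23.6 and 44.3% in Adar1-2KO, 48.5, 18 and 24.5% in Adar2KO, and 19.9, 29.5 and 34.3% in WT, and Kdm5a exon 19, with 6.90 and 93.6% in Adar1-2KO, no value in Adar2KO, and 9.60, 3.40 and 80% in WT. Libraries without a value did not list the circle. The forward count was 0 in 186 of 446 listed values (41.7%), and for 30 circles it was 0 in some libraries and above 0 in others, so a ratio of 100% depends on the forward count as deposited.

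The circular share was tested with limma on the log2 ratio of back-splice to forward-splice reads, for 148 of the 3707 member circles, those with at least 20 reads in every library. In Adar1-2KO against WT 0 passed, in Adar2KO against WT 0, and in Adar1-2KO against Adar2KO 0, where 0.0944%, 0.0787% and 0.189% of all 6353 circles did. At an unadjusted p under 0.05 there were 7, 7 and 10 (4.79%, 2.93% and 5.13% of all). The lowest p was that of the Nsd3 circle chr8:26130593-26149911 in Adar1-2KO against WT, with -13.3 ± 2.19 (SE, limma, adjusted p = 0.205). Standard errors reached 5.87 on the log2 scale, for a Phf21a circle. The counts of 0 thus do not show a stable circular share. The median log2 change was -0.31 in Adar1-2KO and 0.12 in Adar2KO against WT, with -0.22 and 0.20 for all circles.

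Host levels on both platforms were alike in order. Over the 52 hosts Spearman's rho between mean ONT and mean Illumina CPM was 0.894 in Adar1-2KO, 0.889 in Adar2KO and 0.893 in WT, and Pearson's r of the log2 values was 0.911 in Adar1-2KO, 0.861 in Adar2KO and 0.860 in WT. These describe the members and share the same brains and RNA. A main circle could still be missing on a platform. Of 416 pairs of a main circle and a library with both platforms, 82 were not listed on ONT, and in 41 of these Illumina had at least 100 reads and in 11 at least 1000. The main circles of Ash1l (15923 Illumina reads in all), Arid1a (6015), Ino80 (3309), Jarid2 (671) and Smarca5 (345) were in no ONT table.

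The Phf21a main circle shows this gap most clearly. On ONT it had 1078, 703 and 0 reads in Adar1-2KO, 1392, 0 and 0 in Adar2KO, and 0 and 586 in WT, against 17657, 10619 and 20737 reads in Adar1-2KO, 13320, 10520 and 13154 in Adar2KO, and 15723, 9874 and 7398 in WT on Illumina. It was listed in 4 of 8 ONT libraries, across all 3 genotypes, and the host's ONT level followed it, with 2504, 2483 and 46.6 CPM in Adar1-2KO, 3849, 48.3 and 79.1 CPM in Adar2KO, and 24.9 and 3191 CPM in WT. The reverse gap was rarer. In 20 pairs the main circle was not listed on Illumina, and in 7 of these ONT had reads of it, among them Jmjd1c in Adar2KO replicate 1 with 36 ONT reads, Arid4a in WT replicate 2 with 15 and Chd1 in Adar2KO replicate 1 with 8. In 4 hosts over 50% of the main circle's reads came from 1 Illumina library, in each case Adar1-2KO replicate 3, and these were Smarca5, Kdm5a, Trrap and Asxl1.

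**Figure D5:**
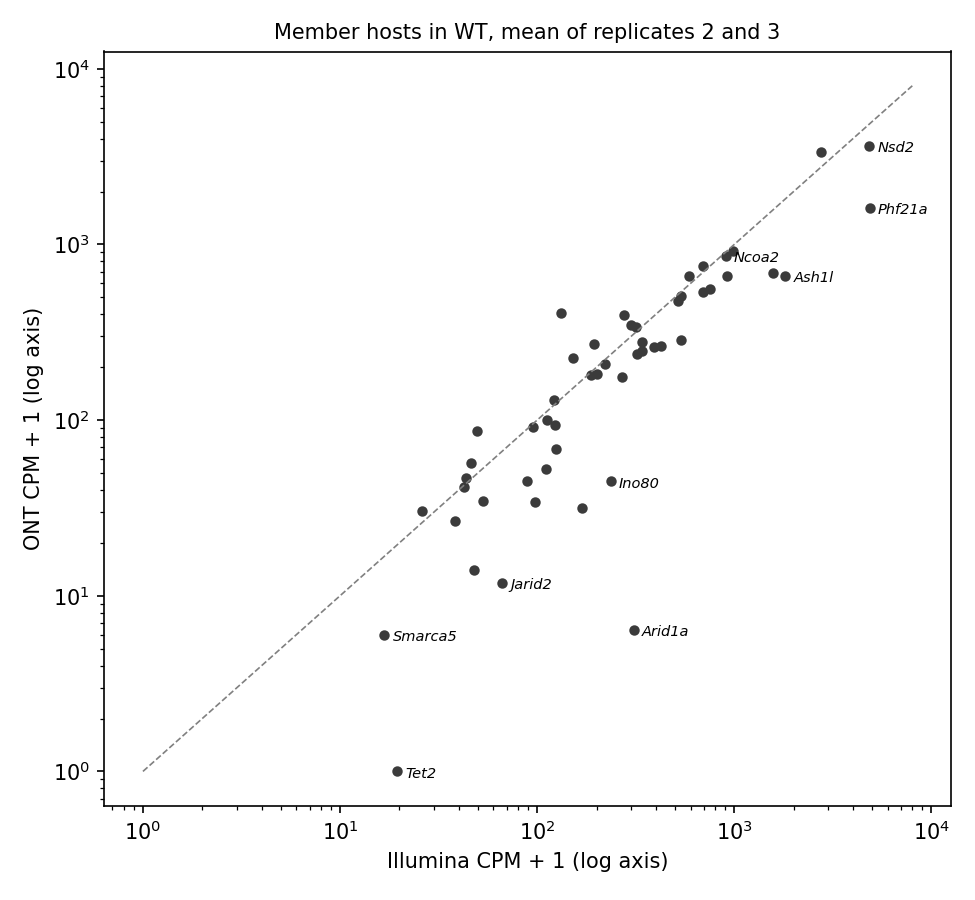
Mean WT host level (replicates 2 and 3) on ONT against Illumina in CPM + 1 on log axes, with 1 point per member and the line of equal values dashed. Most points lie near the line, while Arid1a, Tet2, Ino80 and Jarid2 lie well below it.

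A further list of 136 chromatin regulators outside the 52 gave 118 tested hosts on Illumina and 103 on ONT. On Illumina 0 passed in each of the 3 comparisons, where 0.0807%, 0.0403% and 0.101% of all hosts did, in the order that follows. At an unadjusted p under 0.05 there were 11 in Adar1-2KO against WT, 1 in Adar2KO against WT and 6 in Adar1-2KO against Adar2KO. Of all hosts 7.29%, 1.6% and 6.62% were under it. On ONT 2 rose in Adar1-2KO against Adar2KO, Mllt3 and Mllt10, where 0.638% of all hosts did. They encode readers that join the DOT1L methyltransferase, and rose by 1.52 ± 0.24 and 1.02 ± 0.21 on the log2 scale (edgeR, adjusted p = 0.00778 and 0.0418). Against WT 0 passed on ONT in Adar1-2KO or Adar2KO, where 0.0345% and 0.069% of all hosts did. There were 18 and 8 at an unadjusted p under 0.05 in Adar1-2KO and Adar2KO, where 10.4% and 5.65% of all hosts were. On Illumina the fold changes of Mllt3 and Mllt10 between the mutants were -0.04 ± 0.25 and 0.38 ± 0.25 (adjusted p = 0.992 and 0.863).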

How the data were processed

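Reads were demultiplexed with bcl2fastq and aligned with BWA 0.7.17 to GRCm39, per the submitters' processing notes, and circles were called with CIRIquant 1.1.2, per the file headers. The authors' deposited CIRIquant tables hold counts of back-splice and forward-splice reads, a junction ratio as a fraction and a CPM. In the Adar1-2KO tables values stand 1 column right of their headers, which was corrected. Deposited CIRI2 and ONT tables hold counts from 2 reads upward, from an ONT caller not given in the sources used here. The authors' DESeq2 2.11.40.8 tables hold log2 fold changes with standard errors, and p-values.

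Counts were summed per circle and per host. A circle with several names counted for each. A circle not listed in a library counted as having no reads there. The test covered features that reached 5 reads in 3 or more libraries, and used edgeR 4.0.16 (quasi-likelihood F-test, TMM, all libraries of a platform in 1 fit, two-sided, Benjamini-Hochberg at 0.05), and also with DESeq2 1.42.0, in R 4.3.3. SE is the fold change over the square root of F. The circular share used limma 3.58.1 with a pseudocount of 0.5 and at least 20 reads per library. Scripts were tested on simulated data. The members, lists, tests and the rule for named genes were chosen with earlier results of these data known. The rule names members that passed, the 12 highest and 5 lowest hosts, the 2 lowest p per class and mutant, main circles, the 12 highest circles and the extremes of the junction ratio. Alternatives were other scaling, filters, tools, callers, a replicate block and leaving out each library. A fit on flow cell 1 was added after the data were seen. Equal replicate numbers did not pair samples. Counting intervals are not given, since PCR reads without molecular identifiers are not independent molecules. The notes name no step that keeps strand.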

Additional observations from a re-analysis of the deposited data

Results flagged for a closer look

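In 4 results the effect of one mutant against WT differed from that of the other, as tested by Adar1-2KO against Adar2KO. The Ncoa2 host differed on ONT by 2.16 on the log2 scale, and its circle of exons 2 to 4 by 2.23 on ONT. The Nsd3 exon 2 circle differed by 1.82 on ONT and not on Illumina. The L3mbtl3 circle of exons 2 to 17 differed by a fitted -9.38 on Illumina, a value that depends on the prior count because Adar1-2KO is at 0, and ONT gave -1.88.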

How the results depend on the processing

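No called result changed direction under any alternative that was run. The Nsd3 exon 2 circle on Illumina, which did not pass in Adar1-2KO against Adar2KO, was -0.20 on the log2 scale without Adar1-2KO replicate 3, against 0.39 with all libraries. Leaving out each library in turn gave 0 to 2 member circles called on Illumina in Adar1-2KO against WT and 0 to 1 against Adar2KO, 0 to 3 on ONT in Adar1-2KO against Adar2KO, 0 to 2 hosts on ONT in Adar1-2KO against WT and 0 to 3 against Adar2KO, and 0 to 1, 0 to 1 and 0 to 2 circles of changed share in Adar1-2KO against WT, Adar2KO against WT and Adar1-2KO against Adar2KO. The members' share then ranged from 2.88 to 2.96% in Adar1-2KO, 2.68 to 2.83% in Adar2KO and 2.87 to 2.91% in WT on Illumina, and from 2.19 to 2.27% in Adar1-2KO, 1.89 to 2.07% in Adar2KO and 1.92 to 2.27% in WT on ONT.

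Replicate numbers did not pair the samples (correlations of -0.042 to 0.038). With a replicate block 0 member circles on Illumina passed in Adar1-2KO against WT and 0 against Adar2KO, and 1 on ONT in Adar1-2KO against Adar2KO. Using only the groups compared also left 0 and 0 on Illumina, as did the libraries of flow cell 1, where each mutant has 1 library and the 3 WT libraries give the spread, and at least 10 reads left 0 against Adar2KO. With DESeq2 the circles called on Illumina were 4 in Adar1-2KO against WT and 7 against Adar2KO, and on ONT 1 in Adar2KO against WT and 6 in Adar1-2KO against Adar2KO. With no filter they were 1 in Adar2KO against WT, 7 in Adar1-2KO against WT and 7 against Adar2KO on Illumina, and 1, 1 and 5 on ONT. For hosts, no filter gave 1 in Adar1-2KO against WT and 1 against Adar2KO on Illumina, where DESeq2 and CIRI2 counts also gave 1, and 1, 1 and 2 on ONT in Adar2KO against WT, Adar1-2KO against WT and Adar1-2KO against Adar2KO. DESeq2 gave 1, 1 and 3 hosts on ONT, and DESeq2 size factors or at least 10 reads gave 2 in the last. Shares of all circles and hosts called are given above only for the main fits and DESeq2. The counts under other settings, also those with a library left out, are therefore no result about the members. The share of reads was 3.00% in Adar1-2KO and 2.96% in WT on Illumina, and 2.68% in Adar1-2KO, 2.31% in Adar2KO and 2.40% in WT on ONT, over circles that pass the filter, and 2.73% in Adar1-2KO, 2.47% in Adar2KO and 2.60% in WT with CIRI2 counts. The cause was not tested. With 3 libraries per genotype and 1 library with few circles, a difference missed here was not detectable at this depth and is not shown to be absent.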
